A study of Mus musculus with 18 samples.

Results

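RNA sequencing was used to ask how the transcriptome of mouse embryonic stem cells (mESCs) differs between soft and stiff substrates when the extracellular matrix (ECM) is only weakly tethered to them. The comparison rests on 6 of the study's 18 libraries, chosen by their condition labels: 3 from soft gels of about 750 Pa and 3 from stiff gels of about 160 kPa, all made with 16 mM of the co-factor AHA (low AHA). The cells were wild-type E14 mESCs, an established line of 129 background. All cells grew on polyacrylamide StemBond hydrogels coated with fibronectin, in serum and LIF, for 24 h, so medium, coating and time were shared by both groups. AHA (6-acrylamidohexanoic acid) offers the carboxyl groups to which ECM proteins bind, and its concentration sets how firmly the matrix is held. The other 12 libraries came from soft and stiff gels with 48 mM (mid) or 80 mM (high) AHA and are used to show where low AHA differs. They also entered the fit, which held 17 of the 18 libraries. The gene filter and the estimate of spread behind the p-values at low AHA therefore rest on mid and high AHA libraries too. All values are relative to stiff gels, and a positive log2 fold change means a higher level on soft gels. Expression is given as CPM, read counts scaled to each library's total over tested protein-coding genes with TMM factors, in the order of replicates 1, 2 and 3. CPM is not corrected for gene length, so it compares libraries and not genes.

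Cells sense how far a substrate yields through integrins, receptors that bind ECM and are linked by talin, vinculin and zyxin to actin filaments. Tension in these filaments changes transcription through serum response factor (SRF), whose co-activators are released when actin polymerises, and through the co-activators YAP and TAZ, which work with TEAD factors. mESCs in serum and LIF are a mixed population in which naïve factors such as Esrrb, Nanog and Zfp42 are expressed beside genes of early differentiation driven by ERK signalling.

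Gene counts in the 6 libraries ranged from 5865549 to 8596455, and the spread within a group exceeded counting error for all 6 pairs of replicates (chi-square divided by its degrees of freedom, 1.82 to 2.29). The share of gene counts in protein-coding genes was 68.6 to 69.0% on soft and 69.7 to 70.0% on stiff gels, without overlap, and that in rRNA-like genes 24.6 to 25.1% and 23.7 to 24.2%. For both shares the two-sided exact permutation test gave p = 0.1, the smallest value that 3 against 3 libraries allow (adjusted p = 0.3 over 6 library measures). The part of these shares in the results below was not tested. Markers of the labelled cell type were high in every library, with Pou5f1 at 513 to 566 CPM and Sox2 at 275 to 352 CPM. Summed markers of primitive endoderm stood at 48.9 to 59.4 CPM and those of 2-cell-like cells at 29.8 to 43.9 CPM. The sums were 64.0 to 92.4 CPM for mesoderm, 86.7 to 109 for neuroectoderm, 92.3 to 137 for trophoblast and 125 to 220 for fibroblast markers. As CPM does not compare genes, these sums do not give shares of cells. In bulk samples, fewer cells of a type and less RNA per cell cannot be told apart.

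Of 13438 protein-coding genes tested with edgeR's quasi-likelihood test, 408 (3.04%) had an adjusted p under 0.05 and are termed called. On soft gels 114 genes (0.848% of those tested) rose and 294 (2.19%) fell, so that 72.1% of called genes were lower on the soft substrate. Over all tested genes the median log2 fold change was 0.0042 and 51.0% were positive. The differences were modest: the median log2 fold change was 0.27 among genes that rose and -0.37 among those that fell, and 98 genes passed an absolute value of 0.5 (19 higher, 79 lower). Soft and stiff libraries did not overlap in 396 of the 408 called genes, 109 above and 287 below, while among all tested genes the soft libraries lay wholly above in 8.65% and wholly below in 9.6%.

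**Figure D1:**
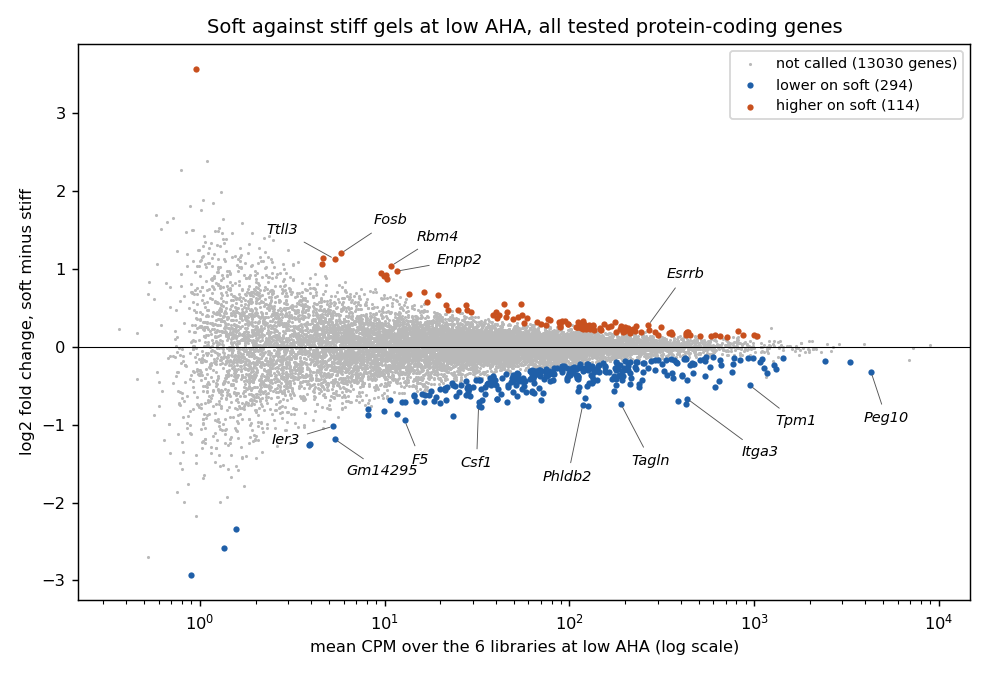
Log2 fold change of soft minus stiff gels at low AHA (vertical axis) against mean CPM over the 6 libraries (horizontal axis, log scale), 1 point per protein-coding gene, with called genes in colour. The 294 genes that fell outnumber the 114 that rose.

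Single libraries moved the size of this gene set. Without soft replicate 1 only 245 genes were called, and without the other libraries between 277 and 370. Soft replicate 1 was the lowest of the 6 libraries in 157 of the 294 genes that fell, replicate 2 in 67 and replicate 3 in 70. With libraries scaled by their total of ERCC spike-in RNAs, a set of synthetic RNAs added to the samples, 162 genes were called, of which 13 were higher and 149 lower (92.0% lower), with the median over all tested genes at -0.0086.

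The gene with the lowest adjusted p was Itga3, the integrin alpha 3 subunit of a laminin receptor. It stood at 314, 335 and 354 CPM on soft and 562, 523 and 507 CPM on stiff gels. All 3 soft libraries lay far below all 3 stiff ones, and soft gels held 63.0% of the level on stiff gels (log2 fold change -0.67, SE 0.045, adjusted p = 2.40e-27). The other 9 genes with the lowest adjusted p also fell. They included the actin-binding Tagln, Tpm1, Cald1 and Acta2, the keratin Krt18, the tubulin Tubb6, the cortical microtubule anchor Phldb2 and the imprinted, retrotransposon-derived Peg10. Peg10 was at 3620.1, 3997 and 3813 against 4754, 4659 and 4859 CPM on soft against stiff gels (log2 fold change -0.32, SE 0.029, adjusted p = 1.45e-17). Tubb6 stood at 198, 205 and 196 CPM on soft and 281, 296 and 257 CPM on stiff gels (log2 fold change -0.48, SE 0.052, adjusted p = 6.71e-13). The call of each gene named here held under all 14 alternative settings.

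Many genes of the actin cytoskeleton and targets of SRF fell. Of 37 tested members of this list, 21 fell and none rose, against 2.19% of all tested genes that fell, and the list's median log2 fold change was -0.29 against 0.0042 over all tested genes. The lowest value was that of Tagln. Tagln (transgelin, SM22), a classical SRF target, was at 132, 146 and 148 CPM on soft and 232, 259 and 219 CPM on stiff gels (log2 fold change -0.73, SE 0.059, adjusted p = 4.93e-21), although 67.9% of its exonic bases lie under exons of the opposite strand, so that without strand its reads cannot be told from those of its neighbour. Acta2, smooth muscle actin, was at 85.3, 95.4 and 103 CPM on soft and 137, 158 and 153 CPM on stiff gels (log2 fold change -0.65, SE 0.069, adjusted p = 1.16e-13). The soft libraries lay below the stiff ones in both genes.

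Tpm1, a tropomyosin that stabilises actin filaments, was at 741, 785 and 831 CPM on soft and 1072, 1148 and 1104 CPM on stiff gels (log2 fold change -0.50, SE 0.037, adjusted p = 1.96e-23). Cald1, caldesmon, which regulates actomyosin, was at 452, 519 and 537 CPM on soft and 707, 711 and 739 CPM on stiff gels (log2 fold change -0.52, SE 0.043, adjusted p = 4.20e-17). Neither gene showed any overlap between groups. Members that did not pass the test included Cfl1 (cofilin, which severs actin filaments) with a log2 fold change of -0.11, adjusted p = 0.159, Cnn3 (a calponin) with -0.18, adjusted p = 0.086 and Srf itself with -0.10, adjusted p = 0.571. The SRF transcript thus gave values of 124, 124 and 121 against 132, 126 and 136 CPM on soft against stiff gels. Across all alternative settings 16 to 23 members were called lower and none higher.

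SRF binds the CArG box, and promoter windows of the list's genes were therefore searched for it on both strands, from 250 bases before to 50 bases after the annotated start (RefSeq, GRCm38.p6). A window was found for 10516 of the 13438 tested genes and for 31 of the 37 list members. A CArG box was present in 10 of these 31 (32.3%), in 10 of 223 genes that fell (4.48%), in 2 of 93 that rose (2.15%) and in 164 of all 10516 (1.56%). Among the 18 called list members with a window, 3 had a box: Cnn2, Vcl and Acta1. Tagln was not searched, as no window was found for it. Their windows are shown because they are the called list members in which this motif was found, written 5′ to 3′ with the CArG box in capitals.

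Cnn2 (chr10:79988350-79988649, + strand): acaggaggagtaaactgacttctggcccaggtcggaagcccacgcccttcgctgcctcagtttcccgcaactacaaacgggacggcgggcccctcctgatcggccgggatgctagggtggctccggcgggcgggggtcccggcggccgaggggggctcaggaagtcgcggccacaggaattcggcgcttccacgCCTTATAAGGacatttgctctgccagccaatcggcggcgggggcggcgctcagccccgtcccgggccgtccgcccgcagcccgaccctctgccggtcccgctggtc
Vcl (chr14:20929148-20929447, + strand): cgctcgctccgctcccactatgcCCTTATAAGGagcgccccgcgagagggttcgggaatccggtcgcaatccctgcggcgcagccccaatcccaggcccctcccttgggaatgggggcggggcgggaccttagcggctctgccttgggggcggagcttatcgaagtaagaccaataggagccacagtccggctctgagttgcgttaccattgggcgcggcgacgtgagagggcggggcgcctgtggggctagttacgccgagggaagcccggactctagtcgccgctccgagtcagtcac
Acta1 (chr8:123894726-123895025, - strand): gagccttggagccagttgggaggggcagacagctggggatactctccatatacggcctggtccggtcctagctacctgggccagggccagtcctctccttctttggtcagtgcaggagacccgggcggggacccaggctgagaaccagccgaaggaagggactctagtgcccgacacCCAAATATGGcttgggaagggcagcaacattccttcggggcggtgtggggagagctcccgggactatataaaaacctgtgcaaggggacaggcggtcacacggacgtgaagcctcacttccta

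The box was centred 51 bases before the start in Cnn2, 222 bases before it in Vcl and 68 bases before it in Acta1. Cnn2, a calponin that binds actin and myosin, was at 150.2, 167 and 173 CPM on soft and 218, 216 and 202 CPM on stiff gels (log2 fold change -0.37, SE 0.057, adjusted p = 3.62e-07). Vcl, vinculin, was at 245, 272 and 263 CPM on soft and 320.1, 330.2 and 306 CPM on stiff gels (log2 fold change -0.29, SE 0.048, adjusted p = 2.15e-06). Acta1, skeletal muscle actin, was at 30.9, 28.9 and 30.1 against 46.3, 37.9 and 40.5 CPM on soft against stiff gels (log2 fold change -0.48, SE 0.13, adjusted p = 0.0107). In each of these genes the 3 soft libraries were below the 3 stiff ones. A match only says that these letters are in the window. The TEAD motif GGAATG, searched on both strands, was present in 50 of the 223 genes that fell (22.4%), in 15 of 93 that rose (16.1%) and in 1512 of all 10516 (14.4%). The AP-1 motif TGANTCA, which reads the same on both strands, was present in 10.3, 4.30 and 6.00% of these windows.

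Of 25 tested genes of integrin adhesions 11 fell (2.19% of all tested genes did) and none rose, with a median log2 fold change of -0.25, while Itga2, Ilk and Lims2 did not pass the filter on low counts. Vcl is on both this list and the actin list. Besides Itga3, the fibronectin receptor subunit Itgb1 was at 342, 360.0 and 367 CPM on soft and 470.0, 445 and 453 CPM on stiff gels (log2 fold change -0.36, SE 0.044, adjusted p = 1.38e-10). Zyx, zyxin, which gathers at adhesions under tension, was at 136, 139.8 and 145 CPM on soft and 219.7, 187 and 213 CPM on stiff gels (log2 fold change -0.56, SE 0.063, adjusted p = 4.13e-11). Tln1, talin, which joins integrins to actin, was at 407, 434 and 401 CPM on soft and 518, 547 and 501 CPM on stiff gels (log2 fold change -0.33, SE 0.044, adjusted p = 1.23e-09). None of these genes overlapped between groups.

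The adhesion genes that were not called included Fermt2 (kindlin-2, an integrin activator) with -0.15, adjusted p = 0.0567, the laminin receptor subunit Itga6 with -0.16, adjusted p = 0.0974 and the tensin Tns3 with -0.09, adjusted p = 0.281. The number of adhesion genes that fell was 9 to 12 in every alternative setting.

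**Figure D2:**
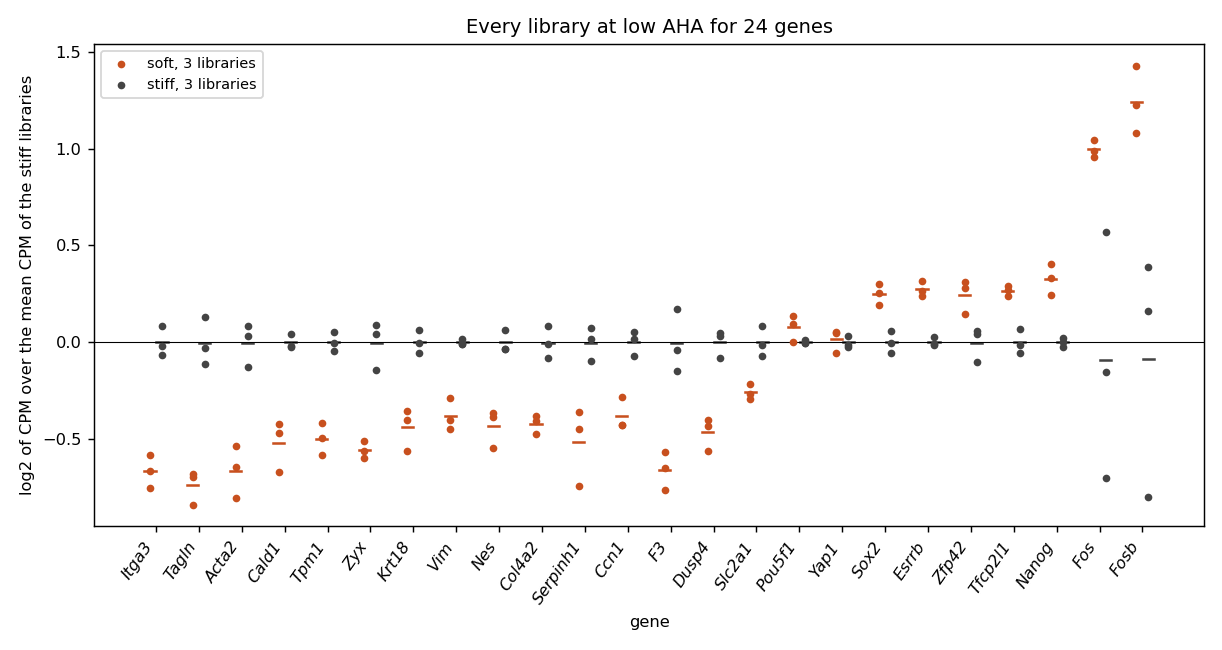
Expression of 24 genes in each of the 6 libraries at low AHA as log2 of the CPM over the mean CPM of the 3 stiff libraries, with soft libraries in orange, stiff libraries in dark grey and group means as short bars. Soft libraries lie below all stiff ones in the 15 genes on the left, above them in the 7 genes on the right, and overlap them in Pou5f1 and Yap1.

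Intermediate filament genes made up the list with the largest share of called members: 7 of 10 fell, against 2.19% of all tested genes, and the median log2 fold change was -0.39. Keratins 8 and 18 pair in simple epithelia. Krt18 was at 505, 564 and 582 CPM on soft and 742, 716 and 778 CPM on stiff gels (log2 fold change -0.44, SE 0.041, adjusted p = 6.38e-16), and Krt8 at 303, 316 and 327 CPM on soft and 429, 389 and 430.1 CPM on stiff gels (log2 fold change -0.40, SE 0.046, adjusted p = 2.97e-12). Vim, vimentin, was at 447, 461 and 498 CPM on soft and 616, 606 and 604 CPM on stiff gels (log2 fold change -0.38, SE 0.042, adjusted p = 9.01e-13). Nes, nestin, was at 194, 217 and 221 CPM on soft and 278, 278 and 297 CPM on stiff gels (log2 fold change -0.43, SE 0.051, adjusted p = 1.51e-11). The groups did not overlap in any of these. Krt7, Krt19 and Lmna, the A-type lamin whose level is known to follow tissue stiffness, also fell, with log2 fold changes of -0.49, -0.44 and -0.23, but Lmna lost its call in 7 of 14 alternative settings. The B-type lamin genes did not pass, with 0.18, adjusted p = 0.131 for Lmnb2.

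Of 21 tested YAP and TEAD targets 10 fell and none rose, against 2.19% of all tested genes that fell, and all 21 had a negative log2 fold change (median -0.30), while 51.0% of all tested genes were positive. Ccn1 (Cyr61), a matricellular protein induced by YAP, was at 147, 147 and 163 CPM on soft and 205, 200.1 and 188 CPM on stiff gels (log2 fold change -0.38, SE 0.058, adjusted p = 5.26e-07). Ptpn14, a phosphatase that restrains YAP and is itself induced by it, was at 177, 206 and 173 CPM on soft and 247, 239 and 246 CPM on stiff gels (log2 fold change -0.40, SE 0.055, adjusted p = 1.18e-08). The angiomotin relative Amotl1 was at 155, 179.7 and 153 CPM on soft and 205, 202 and 221 CPM on stiff gels (log2 fold change -0.37, SE 0.058, adjusted p = 1.09e-06). F3, tissue factor, was at 29.3, 33.6 and 31.8 CPM on soft and 56.1, 44.8 and 48.4 CPM on stiff gels (log2 fold change -0.67, SE 0.11, adjusted p = 6.78e-06). Members that were not called included Ajuba (-0.11, adjusted p = 0.237), Dock5 (-0.17, adjusted p = 0.117) and Asap1 (-0.14, adjusted p = 0.349). With ERCC totals 6 members were called, at a list median of -0.31.

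Among 15 components of the Hippo pathway itself, which controls YAP, 1 rose and 2 fell, against 0.848% and 2.19% of all tested genes. Yap1 was at 212, 228 and 228 CPM on soft and 226, 219 and 217 CPM on stiff gels, a log2 fold change of 0.02, adjusted p = 0.955, and the groups overlapped. Its paralogue Wwtr1 (TAZ) fell, with 57.0 ± 1.19 CPM on soft and 70.9 ± 2.54 CPM on stiff gels (SD over 3 libraries; log2 fold change -0.31, SE 0.089, adjusted p = 0.0239), and so did Tead1 (-0.15, adjusted p = 0.0469), whereas Nf2, the upstream regulator merlin, rose (0.16, adjusted p = 0.0386). These 3 calls were near the threshold and were lost in 6, 9 and 7 of 14 alternative settings.

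Matrix genes fell in part. Of 21 tested genes of matrix and basement membrane 9 fell and 1 rose (median log2 fold change -0.16), against 2.19% and 0.848% of all tested genes. Collagen IV is the network-forming collagen of basement membranes. Col4a2 was at 166, 159 and 169 CPM on soft and 234, 208 and 219 CPM on stiff gels (log2 fold change -0.43, SE 0.06, adjusted p = 6.41e-08), and its partner Col4a1, which shares a promoter region with it, at 292, 288 and 286 CPM on soft and 383, 324 and 369 CPM on stiff gels (log2 fold change -0.32, SE 0.053, adjusted p = 2.29e-05). Serpinh1 (HSP47), the collagen chaperone, was at 87.7, 107 and 114 CPM on soft and 154, 137 and 149 CPM on stiff gels (log2 fold change -0.51, SE 0.07, adjusted p = 1.06e-08). Sparc, a collagen-binding matricellular protein, was at 389.6, 416 and 437 CPM on soft and 490.4, 486 and 486 CPM on stiff gels (log2 fold change -0.23, SE 0.043, adjusted p = 3.84e-05).

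The only matrix gene that rose was Lama1, the laminin alpha 1 chain of the early embryo, at 174, 189.7 and 161 CPM on soft and 157, 149 and 134 CPM on stiff gels (log2 fold change 0.25, SE 0.064, adjusted p = 0.00962), and its call was lost in 3 of 14 settings. The gene for fibronectin, the protein that coated both gels, did not pass: Fn1 was at 1035, 1084 and 1060.4 CPM on soft and 1122, 1078 and 1121 CPM on stiff gels (-0.06, adjusted p = 0.485). Col18a1 (-0.11, adjusted p = 0.106) and Lamc1 (-0.05, adjusted p = 0.693) did not pass either. With ERCC totals 4 matrix genes were called lower, at a list median of -0.17.

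Cell-cell junction genes gave 8 calls of 19 tested, all lower, with a median log2 fold change of -0.14, against 2.19% of all tested genes that fell. Dsp, desmoplakin, was at 335, 389 and 343 CPM on soft and 449, 468 and 468 CPM on stiff gels (log2 fold change -0.38, SE 0.046, adjusted p = 1.74e-10). Pkp2, a desmosomal plakophilin, was at 85.9, 84.3 and 92.2 CPM on soft and 118, 119 and 102 CPM on stiff gels (log2 fold change -0.37, SE 0.075, adjusted p = 3.21e-04). Cdh1, E-cadherin, which holds mESC colonies together, was at 781, 776 and 801 CPM on soft and 904, 855 and 895 CPM on stiff gels (log2 fold change -0.17, SE 0.037, adjusted p = 9.16e-04), and Ctnna1, alpha-catenin, at 716, 759 and 752 CPM on soft and 812, 799 and 848 CPM on stiff gels (log2 fold change -0.14, SE 0.038, adjusted p = 0.0104). Ctnnb1 (0.08, adjusted p = 0.405) and Epcam (-0.15, adjusted p = 0.185) did not pass. The call of Ctnna1 was lost in 3 of 14 settings. The count fell to 4 without soft replicate 1, 5 without soft replicate 2, 4 without soft replicate 3, 5 without stiff replicate 1, 3 without stiff replicate 3 and 2 with ERCC totals, where the list median was -0.15.

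**Figure D3:**
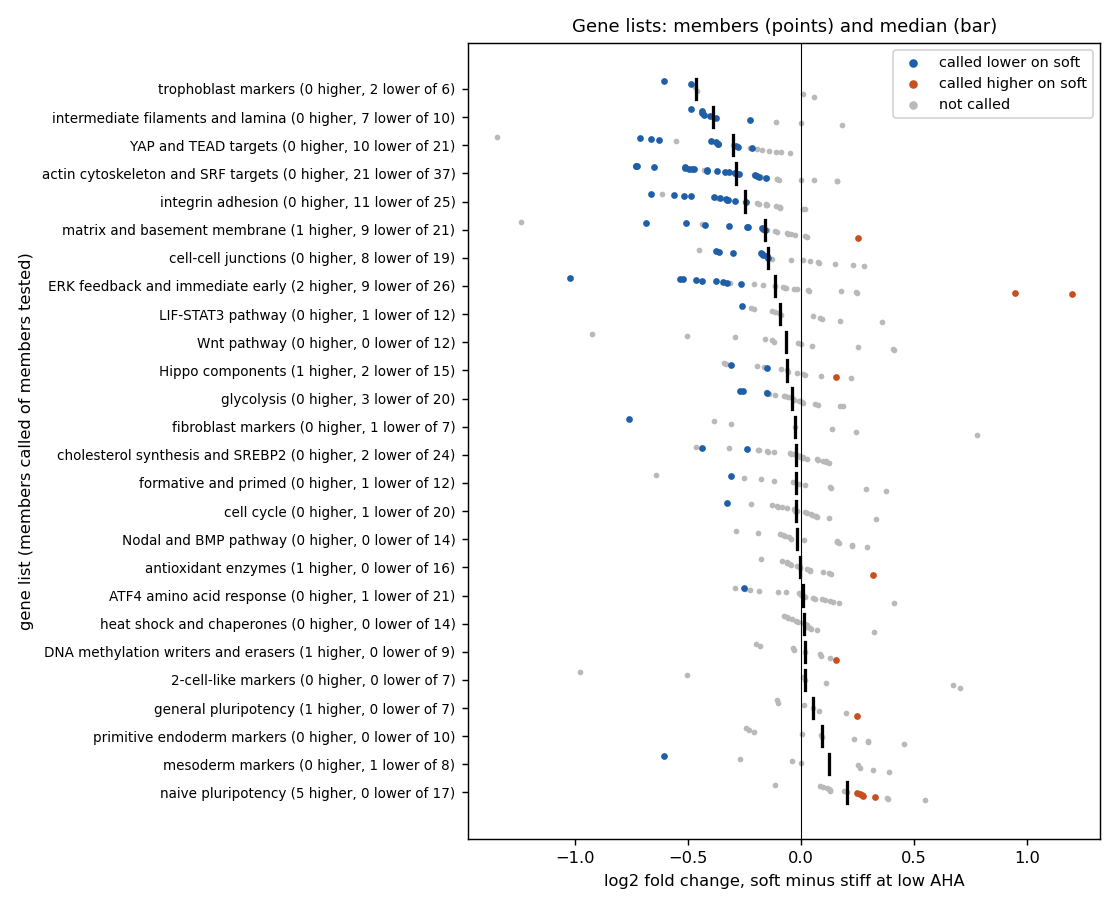
Log2 fold change of soft minus stiff gels at low AHA for every tested member of 26 gene lists with at least 6 tested members, ordered by the list median (black bar), with called members in blue (lower) or orange (higher). Lists of filaments, adhesion, YAP targets and the trophoblast markers have medians to the left of 0, the naïve list has its median to the right, and metabolic, stress and cell cycle lists centre near 0.

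Of 17 tested naïve pluripotency genes, 5 rose and none fell, against 0.848% of all tested genes that rose, and 16 had a positive log2 fold change (median 0.21). Esrrb, an orphan nuclear receptor of the naïve network, was at 301, 290.4 and 285 CPM on soft and 239.9, 246 and 239 CPM on stiff gels (log2 fold change 0.28, SE 0.05, adjusted p = 2.26e-05). Nanog was at 139.6, 133 and 125 CPM on soft and 104, 106 and 107 CPM on stiff gels (log2 fold change 0.33, SE 0.068, adjusted p = 3.84e-04), although 20.4% of its transcript has near-identical copies in 57 other annotated genes. Tfcp2l1, a naïve factor downstream of LIF, was at 203, 207 and 210.0 CPM on soft and 180.2, 165 and 170.4 CPM on stiff gels (log2 fold change 0.26, SE 0.055, adjusted p = 5.35e-04).

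Zfp42 (Rex1), a marker of the naïve state, was at 226, 202 and 222 CPM on soft and 169.6, 188 and 190.0 CPM on stiff gels (log2 fold change 0.25, SE 0.056, adjusted p = 0.00129), and Klf4 rose as well (0.27, adjusted p = 0.008; call lost in 4 of 14 settings). In these 5 genes the soft libraries lay above the stiff ones. Klf2 (0.19, adjusted p = 0.17), Klf5 (-0.11, adjusted p = 0.325) and Dppa5a (0.11, adjusted p = 0.493) did not pass. With ERCC totals none of the 17 was called, although the fold changes were of like size (list median 0.20, Esrrb 0.26, Nanog 0.31), and under the other 13 settings 4 to 7 were called.

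Of 7 general pluripotency genes only Sox2 was called, and it rose. Over all tested genes 0.848% rose and 2.19% fell, the shares to set beside this list and those that follow. Sox2 was at 352, 326 and 341 CPM on soft and 297, 285 and 275 CPM on stiff gels (log2 fold change 0.25, SE 0.049, adjusted p = 1.83e-04). Pou5f1 (Oct4) was at 550.0, 515 and 566 CPM on soft and 513, 513 and 518 CPM on stiff gels (0.08, adjusted p = 0.431) and Sall4 at 829, 831 and 812 against 766, 815 and 805 CPM (0.05, adjusted p = 0.619), and neither passed, nor did Lin28a (-0.11, adjusted p = 0.173). Of 12 formative and primed genes 1 was called, Pou3f1 (Oct6), which fell, with 62.9 ± 1.76 CPM on soft and 77.7 ± 6.14 CPM on stiff gels (SD over 3 libraries; log2 fold change -0.31, SE 0.088, adjusted p = 0.0216) and lost its call in 6 of 14 settings. Dnmt3b, which methylates DNA as cells leave the naïve state, was at 702, 658 and 684 against 696, 719 and 683 CPM (-0.04, adjusted p = 0.778). In the LIF-STAT3 pathway 1 of 12 genes was called, the kinase Pim1, which fell (-0.26, adjusted p = 0.0162; call lost in 4 of 14 settings), while Stat3 (0.08, adjusted p = 0.662) and the receptor Lifr (0.18, adjusted p = 0.157) did not pass. Tet1, which oxidises methylcytosine, rose, with 1045 ± 35.5 CPM on soft and 938 ± 20.6 CPM on stiff gels (SD over 3 libraries; log2 fold change 0.16, SE 0.04, adjusted p = 0.00837), and was the only called gene of 9 writers and erasers of DNA methylation, with its call lost in 4 of 14 settings.

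Feedback and immediate early genes of ERK signalling split. Of 26 tested, 9 fell and 2 rose (median -0.11), against 2.19% and 0.848% of all tested genes, and Egr2 and Egr3 did not pass the filter on low counts. Among the feedback genes Dusp4, a nuclear phosphatase that inactivates ERK, was at 100.1, 112 and 109 CPM on soft and 153, 139 and 151 CPM on stiff gels (log2 fold change -0.47, SE 0.065, adjusted p = 1.15e-08). Etv4, an ETS factor induced by FGF and ERK, was at 71.0, 60.2 and 69.2 CPM on soft and 93.8, 89.9 and 87.6 CPM on stiff gels (log2 fold change -0.44, SE 0.083, adjusted p = 7.23e-05). Phlda1 was at 40.1, 39.4 and 35.4 against 62.4, 50.5 and 51.1 CPM (log2 fold change -0.52, SE 0.11, adjusted p = 3.16e-04), with 33.0% of its exonic bases under exons of the opposite strand, and Dusp5 at 59.6, 60.0 and 63.0 against 83.2, 66.0 and 85.6 CPM (log2 fold change -0.37, SE 0.089, adjusted p = 0.00366).

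The immediate early genes that rose were Fos, at 12.4, 13.2 and 12.7 CPM on soft and 9.52, 3.94 and 5.75 CPM on stiff gels (log2 fold change 0.95, SE 0.23, adjusted p = 0.00535), and Fosb, at 8.02, 9.24 and 7.26 CPM on soft and 3.84, 1.97 and 4.49 CPM on stiff gels (log2 fold change 1.20, SE 0.31, adjusted p = 0.00772). Both encode AP-1 subunits. Their soft libraries were tight and lay above all stiff libraries, which were spread. Both calls were lost without stiff replicate 2, that of Fos also without stiff replicate 3, and that of Fosb also without soft replicate 2. DESeq2 gave no adjusted p for Fosb. Spry4 (-0.08, adjusted p = 0.638), Spred1 (-0.07, adjusted p = 0.692) and Etv5 (0.03, adjusted p = 0.876) did not pass. The number of genes that fell was 4 without soft replicate 1, 4 without stiff replicate 3 and 5 with ERCC totals, where the list median was -0.12.

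Counting only called genes whose mean reached 5 CPM, the 12 lowest log2 fold changes were those of Gm14295 (-1.19, adjusted p = 0.0194), the stress-induced Ier3 (-1.02, adjusted p = 0.0358), the coagulation factor F5 (-0.95, adjusted p = 4.69e-04), Crybg1 (-0.88, adjusted p = 3.64e-06), the urokinase Plau (-0.87, adjusted p = 0.0293), the ubiquitin ligase Trim67 (-0.87, adjusted p = 0.00199), Col4a5 (-0.82, adjusted p = 0.0209), 9930012K11Rik (-0.79, adjusted p = 0.0499), the neuropeptide precursor Vgf (-0.77, adjusted p = 2.29e-06), Col1a1 (-0.76, adjusted p = 0.0117), the macrophage growth factor Csf1 (-0.76, adjusted p = 2.65e-06) and Phldb2 (-0.75, adjusted p = 9.48e-16). Vgf was at 20.7, 26.8 and 25.8 CPM on soft and 39.7, 44.8 and 41.2 CPM on stiff gels and Csf1 at 22.1, 24.3 and 25.4 CPM on soft and 45.2, 41.6 and 34.7 CPM on stiff gels, without overlap. Near-identical copies cover 22.6% of the Gm14295 transcript, and calls were lost in 11 of 14 settings for 9930012K11Rik, 6 of 13 for Ier3, 5 of 14 for Plau, 4 of 14 for Col4a5, 3 of 13 for Gm14295 and 3 of 14 for Col1a1.

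The 12 highest were those of Fosb, the tubulin ligase Ttll3 (1.13, adjusted p = 0.018), the splicing regulator Rbm4 (1.04, adjusted p = 9.65e-04), autotaxin (Enpp2, 0.97, adjusted p = 3.86e-04), Fos, the formin Fhod3 (0.92, adjusted p = 0.00399), the mannosyltransferase subunit Dpm1 (0.91, adjusted p = 0.00434), Zbtb49 (0.87, adjusted p = 0.00694), the kinase Pkmyt1 (0.70, adjusted p = 0.00614), the mitochondrial enzyme Pck2 (0.67, adjusted p = 0.0201), the peptidase Dpp7 (0.66, adjusted p = 0.00463) and Cdk10 (0.58, adjusted p = 0.039). Enpp2, which makes lysophosphatidic acid, was at 14.6, 14.5 and 16.9 CPM on soft and 6.68, 8.13 and 8.81 CPM on stiff gels, without overlap. Rbm4 was at 16.8, 13.4 and 13.6 against 8.35, 6.90 and 5.93 CPM, with near-identical copies over 14.1% of its transcript. For Cdk10 such copies cover 18.98%. DESeq2 gave no adjusted p for Gm14295, Ier3 and Ttll3, which is not counted as a setting. Calls were lost in 6 of 12 settings for Ttll3, 6 of 14 for Cdk10, 4 of 14 for Pck2, 2 of 14 each for Fhod3, Zbtb49, Pkmyt1 and Dpp7 and 1 of 14 for Dpm1. A further 8 called genes had a mean under 5 CPM, where values rest on few counts.

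Lists of metabolism, stress and growth held 0 to 3 called members each, while 3.04% of all tested genes were called (2.19% lower, 0.848% higher). A single call in a list of 20 or 21 genes is near that share. No gene of 14 heat shock genes and chaperones was called (Hsp90ab1 0.02, adjusted p = 0.832), nor any of 14 of the Nodal and BMP pathway (Smad7 -0.08, adjusted p = 0.64) or 12 of the Wnt pathway (Axin2 -0.29, adjusted p = 0.127). Of 20 cell cycle genes 1 was called, Cdk6, which fell (-0.33, adjusted p = 0.00475), while Top2a (0.07, adjusted p = 0.36) and Mcm2 (0.06, adjusted p = 0.576) were not. Of 20 glycolysis genes the 3 called were transporters that fell: the glucose transporters Slc2a1 (-0.26, adjusted p = 1.07e-06) and Slc2a3 (-0.15, adjusted p = 0.00517; call lost in 3 of 14 settings) and the lactate exporter Slc16a3 (-0.27, adjusted p = 0.0297; call lost in 6 of 14 settings), and no glycolytic enzyme on the list passed. Of 24 cholesterol genes 2 fell, among them the sterol oxidase Msmo1 (-0.44, adjusted p = 8.15e-04). In the amino acid response 1 of 21 genes was called, the transporter Slc7a1 (-0.25, adjusted p = 0.0461), which lost its call in 9 of 14 settings, and among 16 antioxidant enzymes mitochondrial Sod2 rose (0.32, adjusted p = 0.00163).

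Of 8 tested mesoderm and 6 trophoblast markers, Hand1, on both lists, fell, with 33.6 ± 6.92 CPM on soft and 51.4 ± 5.60 CPM on stiff gels (SD over 3 libraries; log2 fold change -0.61, SE 0.12, adjusted p = 1.10e-04), and the keratin Krt7, also counted above, fell with it. That made 1 called mesoderm and 2 called trophoblast markers, against 2.19% of all tested genes that fell. The mesoderm list had a median log2 fold change of 0.13, with 4 members positive and 4 negative. The median log2 fold change of the 6 trophoblast markers was -0.46, the lowest of the 26 lists with at least 6 tested members. This rank depended on single libraries. Intermediate filaments had the lower median without soft replicate 3 (-0.42 against -0.34), stiff replicate 1 (-0.37 against -0.33) or stiff replicate 2 (-0.41 against -0.37). The trophoblast median was -0.08 at mid and -0.12 at high AHA. The summed level of the trophoblast markers was 92.3 to 103 CPM on soft and 126 to 137 CPM on stiff gels. That of the fibroblast list was 125 to 149 and 199 to 220 CPM, mostly from Col1a1. Col1a1 was at 80.6, 98.1 and 102 CPM on soft and 160.3, 147 and 168 CPM on stiff gels (log2 fold change -0.76, SE 0.14, adjusted p = 0.0117). It was the only called gene of 7 tested fibroblast markers, of which 3 had a positive and 4 a negative log2 fold change. The fibroblast median was -0.03 and ran from -0.31 to 0.16 over the alternative settings. The fibroblast genes Prrx1, Dcn and Lum and the trophoblast genes Elf5 and Prl3d1 did not reach the filter on counts. Col1a2 (-0.39, adjusted p = 0.19) did not pass. None of 10 primitive endoderm, 4 neuroectoderm or 7 2-cell-like markers was called. The part of these cell types in the falls of filament, adhesion and matrix genes was not tested.

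To see whether the response to stiffness at low AHA differed from that at stronger tethering, the soft minus stiff difference at low AHA was tested against that at mid and at high AHA. The 3 differences share no libraries. Against mid AHA no gene of 13438 was called by edgeR (0%; 760 genes at an unadjusted p under 0.05) and none by DESeq2, while 4 were called without stiff, low AHA replicate 2. The lowest adjusted p, 0.407, was shared by 11 genes, among them Gm14295, Nudc, Fabp3, Apoe and Dnmt3a. Near-identical copies cover 48.8% of the Fabp3 transcript.

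Against high AHA 6 genes were called (0.0446%; 909 at an unadjusted p under 0.05). All 6 were lower relative to stiff gels at low than at high AHA: Tagln, Cald1, Tpm1, Map1b, Phldb2 and Myof. The log2 fold change of Tagln was -0.73 at low, -0.72 at mid and -0.20 at high AHA, a difference between low and high of -0.53, SE 0.086, adjusted p = 1.06e-04. For Cald1 the values were -0.52, -0.41 and -0.13 (-0.38, SE 0.064, adjusted p = 2.64e-04), and for Tpm1 -0.50, -0.39 and -0.18 (-0.31, SE 0.055, adjusted p = 3.55e-04). In these genes the values at low and mid AHA lay closer to each other than to that at high AHA, which was nearest to 0.

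For Phldb2 the values were -0.75, -0.69 and -0.28 (-0.47, SE 0.11, adjusted p = 0.0422). At low AHA alone the calls of Myof and Map1b were lost in 4 and 9 of 14 settings. Myof, a membrane repair protein and YAP target, had -0.28 at low, -0.07 at mid and 0.21 at high AHA (-0.48, SE 0.11, adjusted p = 0.0422), and Map1b, a microtubule-associated protein, -0.15, -0.03 and 0.16 (-0.30, SE 0.067, adjusted p = 0.0422). Acta2 missed the threshold (-0.44, SE 0.10, adjusted p = 0.0509). Itga3 had log2 fold changes of -0.67, -0.52 and -0.53 at the 3 concentrations (-0.14, SE 0.067, adjusted p = 0.696 between low and high).

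**Figure D4:**
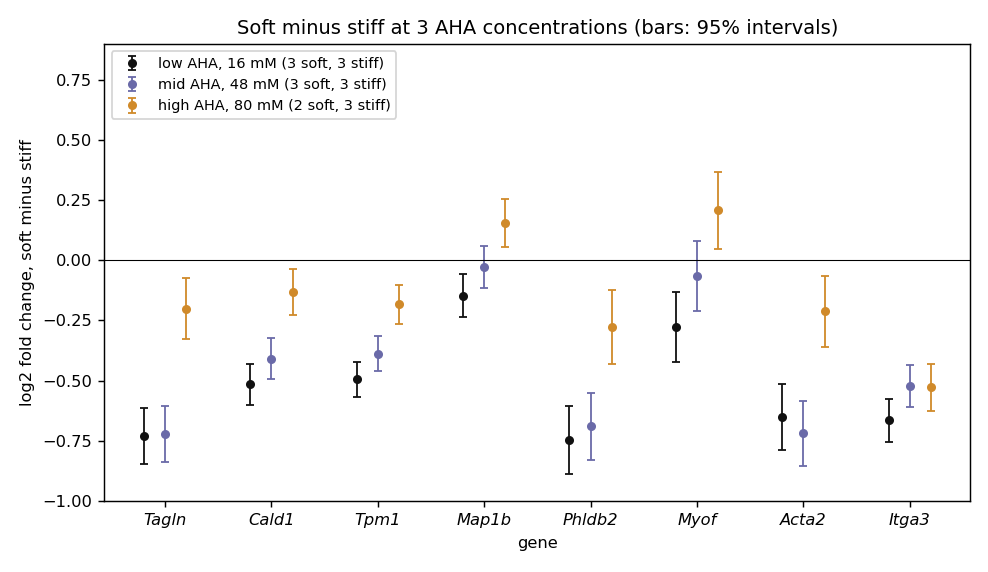
Log2 fold change of soft minus stiff gels at low, mid and high AHA for the 6 genes whose difference between low and high AHA was called, and for Acta2 and Itga3, with 95% intervals. In Tagln, Cald1, Tpm1, Phldb2 and Acta2 low and mid AHA lie below high AHA, in Map1b and Myof mid AHA lies between low and high AHA, and the 3 values of Itga3 lie between -0.67 and -0.52.

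Only Tagln kept this call in all 21 alternative settings, including those that left out each low or high AHA library of the fit or set aside another soft, high AHA library. Tpm1 kept it in 18, Cald1 in 17, Myof in 11, and Map1b and Phldb2 in 10. The high AHA value rests on 2 soft libraries, since soft, high AHA replicate 1 was left out here for its ERCC share of 1.37% against 0.607 to 0.725% in the other 17 libraries. With that library kept, 4 of the 6 genes were called, and with soft, high AHA replicate 3 set aside instead, 2 were. Over all genes, leaving out 1 library gave 3 to 13 calls.

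As lists, the actin and SRF genes had a median log2 fold change of -0.29 at low, -0.32 at mid and -0.13 at high AHA. The integrin list gave -0.25, -0.19 and -0.11, the YAP list -0.30, -0.28 and -0.15 and the intermediate filament list -0.39, -0.21 and -0.13. Naïve genes gave 0.21, 0.26 and 0.28. The 294 genes that fell at low AHA had medians of -0.24 at mid and -0.15 at high AHA, and 259 of them were negative at all 3 concentrations. Of the 114 that rose, 91 were positive throughout, with medians of 0.16 and 0.13. These genes were selected on their values at low AHA, so that larger values there than elsewhere say nothing of a difference between concentrations.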

How the data were processed

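Per the labels and the study's methods, RNA was lysed on the gels and extracted with a column kit with genomic DNA digestion, and libraries were made from total RNA with a pico-input mammalian kit. The authors trimmed reads (Trim Galore 0.4.4), aligned them to mm10/GRCm38 (GSNAP) and used HTSeq to assign reads to Ensembl genes. The authors deposited raw counts, which were not normalised. Whether strand was used in counting is not given in the sources used here. The deposited table listed 46078 genes beside 92 ERCC and 7 SIRV controls and 5 summary lines. The summary lines took 61.7 to 63.0% of each column at low AHA and stayed out of library sizes and tests. GENCODE M21 (GRCm38) gave names, biotypes and positions for 45143 genes, 21519 of them protein-coding.

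Protein-coding genes that passed filterByExpr at a minimum count of 10 entered edgeR (4.0.16, run in R 4.3.3) with TMM factors and a robust quasi-likelihood fit with 1 coefficient per group over 17 libraries. The biological coefficient of variation was 5.35%. P-values were adjusted by Benjamini-Hochberg per contrast. SE is the standard error of a log2 fold change. The scripts were tested on simulated counts. Near-identical copies were stretches of at least 75 bases and 95% identity between a gene's longest M21 transcript and those of other genes (blastn 2.17.0). Library measures were compared with exact permutation tests (scipy 1.17.1).

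Groups followed the condition labels, and replicates were numbered in accession order. Nothing says that they came from separate cultures, so p-values measure the spread between these libraries, which may be technical. The comparison and the gene lists, drawn from general knowledge, were chosen with earlier results of these data known. Genes were named by rule: the 12 highest and 12 lowest fold changes among called genes whose mean reached 5 CPM, the 10 lowest adjusted p, up to 4 called and 3 uncalled members of highest CPM per list, the 5 lowest adjusted p of each test against mid and high AHA, and the 5 lowest among genes that are not protein-coding. Promoters were printed for called actin and SRF genes with a CArG box. Klf4, Krt19, Lmna and Lama1, the values of Acta2 and Itga3 across AHA and the genes of the closing observations were chosen after their values were seen. Uncalled genes near 0 whose sign changed under an alternative were mostly not named, and a few genes that the rule names are not reported here. The alternatives were other scalings (RLE, ERCC totals), DESeq2 1.42.0, other filters, other sets of libraries, a fit without robust estimation and leaving out each library.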

Additional observations from a re-analysis of the deposited data

Results flagged for a closer look

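The soft minus stiff difference was itself tested between low and high AHA, and 6 genes of 13438 differed at an adjusted p under 0.05 (edgeR). The difference in log2 fold change, low minus high AHA, was -0.53 for Tagln, -0.38 for Cald1, -0.31 for Tpm1, -0.30 for Map1b, -0.47 for Phldb2 and -0.48 for Myof. Tagln, Cald1 and Tpm1 encode actin-binding proteins and Phldb2 and Map1b proteins that bind or anchor microtubules. Over the alternative settings the adjusted p of Tagln lay between 2.70e-06 and 0.0160 and that of Phldb2 between 0.00357 and 0.405. High AHA was represented by 2 soft libraries.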

How the results depend on the processing

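All 14 alternatives kept the direction of every called gene they called again. With ERCC totals the calls at low AHA were 162 (13 higher, 149 lower) against 408, the calls against high AHA 2, and those of genes that are not protein-coding 3; the cause was not tested. Leaving out each low AHA library gave 245 to 370 calls (52 to 112 higher, 193 to 258 lower), with 245 without soft replicate 1, 75 higher without soft replicate 2 and 63 higher without stiff replicate 1. Against mid AHA the count was 0 to 4, with 4 without stiff replicate 2. Against high AHA it was 3 with DESeq2, 19 with a filter of at least 2 counts in all, 3 to 13 with a library left out (11 without stiff, high AHA replicate 1, 3 without its replicate 2, 13 without soft, low AHA replicate 2 and 3 without its replicate 1) and 2 with soft, high AHA replicate 3 set aside, a choice made after seeing the data. Of genes that are not protein-coding, 27 were called with only the groups compared and 2 to 8 with a library left out (2 without soft replicate 1, soft replicate 2 or stiff replicate 1). Of the other genes named as called, Dusp5, Acta1, Zfp42, Cdk6 and Sod2 lost the call in 2 of 14 settings and Cdh1, Sparc, Sox2, Esrrb, Nanog, Tfcp2l1 and Slc2a1 in 1. DESeq2 called 344 genes, 342 of them shared with the 408. With only the groups compared 493 genes were called (151 higher, 342 lower), 405 of them shared with the 408. The filter at a mean of 5 CPM gave 421 calls, 400 of them shared. Of genes that were not called, Etv5 changed sign with a library left out (from -0.00842 without soft replicate 1 to 0.059 without soft replicate 2), and so did Dnmt3a (from -0.051 without stiff replicate 3 to 0.069 without stiff replicate 1). No paired analysis was possible because the labels give no replicate number shared between groups. The median SE of a log2 fold change was 0.058 in 2509 genes of at least 100 CPM and 0.37 in 4201 genes under 10 CPM, so that changes of low genes were detectable only when large.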

Other observations

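The genes below are outside the lists, were picked after their values were seen and are given as descriptions. Of 10 tested annexins, which bind membranes in the presence of calcium, 4 fell, against 2.19% of all tested genes, and all 10 had a negative log2 fold change (median -0.31). Anxa3 was at 47.7, 55.6 and 58.3 CPM on soft and 91.5, 85.0 and 82.5 CPM on stiff gels (log2 fold change -0.68, SE 0.088, adjusted p = 9.95e-10), Anxa2 at 93.7, 99.4 and 94.7 CPM on soft and 128, 133 and 122 CPM on stiff gels (log2 fold change -0.41, SE 0.069, adjusted p = 5.81e-06), Anxa5 at 24.5, 28.9 and 27.8 against 35.4, 45.6 and 38.5 CPM and Anxa1 at 67.2, 70.9 and 70.1 against 97.0, 89.7 and 93.5 CPM. Annexin A2 forms a complex with S100a10, which fell as well (-0.27, adjusted p = 0.0089), the only called gene of 8 tested S100 proteins. Its call was lost in 4 of 14 alternative settings.

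Urokinase and its receptor fell, the first with its call lost in 5 of 14 settings. Plau, urokinase, was at 4.61, 4.71 and 7.62 CPM on soft and 10.2, 12.6 and 8.81 CPM on stiff gels, and its receptor Plaur at 43.7, 43.4 and 48.1 CPM on soft and 56.9, 62.3 and 64.9 CPM on stiff gels (log2 fold change -0.44, SE 0.10, adjusted p = 0.00191). Other called genes that fell were Tgfb2 (-0.63, adjusted p = 6.86e-04), Thbs1 (-0.69, adjusted p = 1.83e-04) and the receptor Egfr (-0.58, adjusted p = 1.52e-06). On the side of the genes that rose, Kit, the receptor of stem cell factor, was at 63.6, 65.4 and 59.7 CPM on soft and 42.9, 46.3 and 53.4 CPM on stiff gels (log2 fold change 0.40, SE 0.099, adjusted p = 0.00489), and Tfap2c at 119, 126 and 115 CPM on soft and 105, 92.2 and 104 CPM on stiff gels (log2 fold change 0.25, SE 0.072, adjusted p = 0.0296), and their calls were lost in 2 and 5 of 14 settings.

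Among 2917 genes that are not protein-coding 6 were called (0.206%; 186 at an unadjusted p under 0.05) in a fit over 16350 genes of every biotype, and all 6 were pseudogenes, 4 higher and 2 lower. Gm7809 was at 33.4, 28.97 and 32.2 CPM on soft and 43.5, 45.2 and 40.4 CPM on stiff gels. Gm9892 was at 134, 149 and 144 against 108, 129 and 120 CPM. The log2 fold change was -0.25 for Gm8666, 0.17 for Gm9531 and 0.81 for Gm10232. Parent genes of like sequence can share reads with such copies, so these values are uncertain.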
